A study of Mus musculus with 18 samples.

Results

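Genes of the secretory pathway and of the unfolded protein response were examined in 3 populations of mouse spleen cells, the killer dendritic cells that produce interferon (IKDC), plasmacytoid dendritic cells (labelled Plasmacytoid, here PDC) and conventional dendritic cells (cDC). The group is a list of 41 genes chosen by name, and its members are the probe sets whose platform annotation gives 1 of these symbols. Of the 41 genes, 40 had such a probe set (87 probe sets in all). Sec61g was represented only on a probe set that carries several symbols and was not counted. For testing, at least 2 of 6 arrays had to reach a signal of 60, which 63 of the 87 probe sets and 38 of the 40 genes did, among 12193 genes tested of 15964 named in the series. Calr and Ssr4 had no tested probe set, their signals lying between 2.7 and 75.6. A member that passed the minimum through 1 population alone was favoured to differ, so the 38 are the measured members and not all members.

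Each population was represented by 2 samples, each run on the Affymetrix U74A, U74B and U74C arrays, 18 arrays in all. The submitters used cDC as the control population. No agent or genotype is named in the labels, and the strain and age of the mice, the sorting of the cells and the pooling of animals are not given in the sources used here. Whether the samples of a population came from separate animals is not stated either, so the p-values measure the spread between these samples, part of which may be technical.

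Proteins that are secreted or sit in membranes enter the endoplasmic reticulum (ER) while they are made. The signal recognition particle brings the ribosome to the membrane, the Sec61 channel passes the chain across, signal peptidase trims it, chaperones and disulfide isomerases fold it, and COPII coated vesicles carry it on to the Golgi. When unfolded proteins build up, the sensors IRE1, PERK and ATF6 start the unfolded protein response: IRE1 splices the Xbp1 mRNA into the form that encodes an active transcription factor, PERK signalling raises ATF4 and its target CHOP (Ddit3), and XBP1 and ATF6 raise chaperone and degradation genes. Plasma cells, which secrete antibody, are the classic Xbp1-dependent cells of the spleen, and plasmacytoid dendritic cells are known for secreting type I interferon.

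Promoter sequences were read for the members because XBP1 and ATF6 are known to bind defined motifs. A RefSeq window of 250 bases before to 50 bases after the gene start (build GRCm38.p6) was found for 34 of the 41 members. Hyou1, Ssr2, Sec61a1, Kdelr2, Spcs3, Manf and Atf6 had none. Both strands were searched for the ER stress element ERSE (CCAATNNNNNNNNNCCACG), for ERSE-II (ATTGGNCCACG), for the core of the unfolded protein response element, UPRE (TGACGTGG), and for a cyclic AMP response element (TGACGTCA). The members were chosen by name as genes of this pathway. Shares of its motifs above those of all windows are therefore no independent result. ERSE was present in 7 of 34 member windows (20.6%) and in 0.119% of all 32851 windows. ERSE-II was present in 2 members, Dnajb11 and Herpud1, against 0.0365% of all windows. The UPRE core was present in 3 members, Copb1, Sec23a and Sec24d, against 0.676% of all windows. The cyclic AMP element was in 0 of 34 member windows and in 1.79% of all windows. The 5-base CCACG, which is part of ERSE, of ERSE-II and, on the other strand, of the UPRE core, was in 24 of 34 member windows and in 32.8% of all. The 8 ERSE matches are shown because they carry the binding motif of the chaperone genes, with the conserved ends in capitals and positions counted from the gene start.
Hspa5, bases -65 to -47, same strand as the gene: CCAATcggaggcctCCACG
Hsp90b1, bases -212 to -194, same strand as the gene: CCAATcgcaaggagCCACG
Hsp90b1, bases -107 to -89, opposite strand: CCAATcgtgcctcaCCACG
Calr, bases -162 to -144, opposite strand: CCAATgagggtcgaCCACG
Canx, bases -145 to -127, same strand as the gene: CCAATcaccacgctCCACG
Creld2, bases -126 to -108, opposite strand: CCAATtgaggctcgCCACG
Dnajc3, bases -105 to -87, same strand as the gene: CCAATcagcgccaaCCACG
Pdia6, bases -98 to -80, same strand as the gene: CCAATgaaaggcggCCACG

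The 250 bases before the start are printed for 4 members that passed a test in at least 1 comparison and for Hspa5, the best known ERSE gene, 5′ to 3′ on the strand of the gene. Capitals mark the fixed letters of ERSE in Hsp90b1 and Hspa5, of ERSE-II in Herpud1 and of the UPRE core in Sec24d. The Xbp1 stretch holds none of the motifs. An opposite-strand match reads as its reverse complement.
Xbp1, chr11:5520391-5520640, plus strand: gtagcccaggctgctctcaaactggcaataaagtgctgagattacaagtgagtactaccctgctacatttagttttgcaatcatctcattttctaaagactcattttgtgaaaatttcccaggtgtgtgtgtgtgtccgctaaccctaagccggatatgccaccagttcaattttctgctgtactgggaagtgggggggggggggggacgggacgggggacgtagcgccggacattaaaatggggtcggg
Hsp90b1, chr10:86705445-86705694, minus strand: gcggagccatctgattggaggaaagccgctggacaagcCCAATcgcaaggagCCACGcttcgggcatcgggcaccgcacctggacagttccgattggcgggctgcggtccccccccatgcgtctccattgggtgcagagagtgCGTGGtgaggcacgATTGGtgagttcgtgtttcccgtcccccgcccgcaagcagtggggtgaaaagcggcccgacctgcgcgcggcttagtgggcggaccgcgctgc
Sec24d, chr3:123267246-123267495, plus strand: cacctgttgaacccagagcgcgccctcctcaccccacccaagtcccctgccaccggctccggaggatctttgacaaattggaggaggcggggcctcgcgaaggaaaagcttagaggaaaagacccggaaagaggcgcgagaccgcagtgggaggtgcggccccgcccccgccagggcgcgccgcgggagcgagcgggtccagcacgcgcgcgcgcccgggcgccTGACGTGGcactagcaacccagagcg
Herpud1, chr8:94386179-94386428, plus strand: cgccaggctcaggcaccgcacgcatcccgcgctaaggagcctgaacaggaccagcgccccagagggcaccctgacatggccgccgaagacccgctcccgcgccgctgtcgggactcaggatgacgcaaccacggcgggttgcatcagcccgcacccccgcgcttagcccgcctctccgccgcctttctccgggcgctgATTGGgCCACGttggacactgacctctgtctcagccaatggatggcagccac
Hspa5, chr2:34771840-34772089, plus strand: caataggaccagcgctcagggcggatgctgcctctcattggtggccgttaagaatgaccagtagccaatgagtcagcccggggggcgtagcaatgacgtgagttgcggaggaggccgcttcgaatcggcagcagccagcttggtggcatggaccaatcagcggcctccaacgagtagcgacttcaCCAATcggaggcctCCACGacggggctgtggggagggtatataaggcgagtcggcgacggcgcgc

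**Figure D1:**
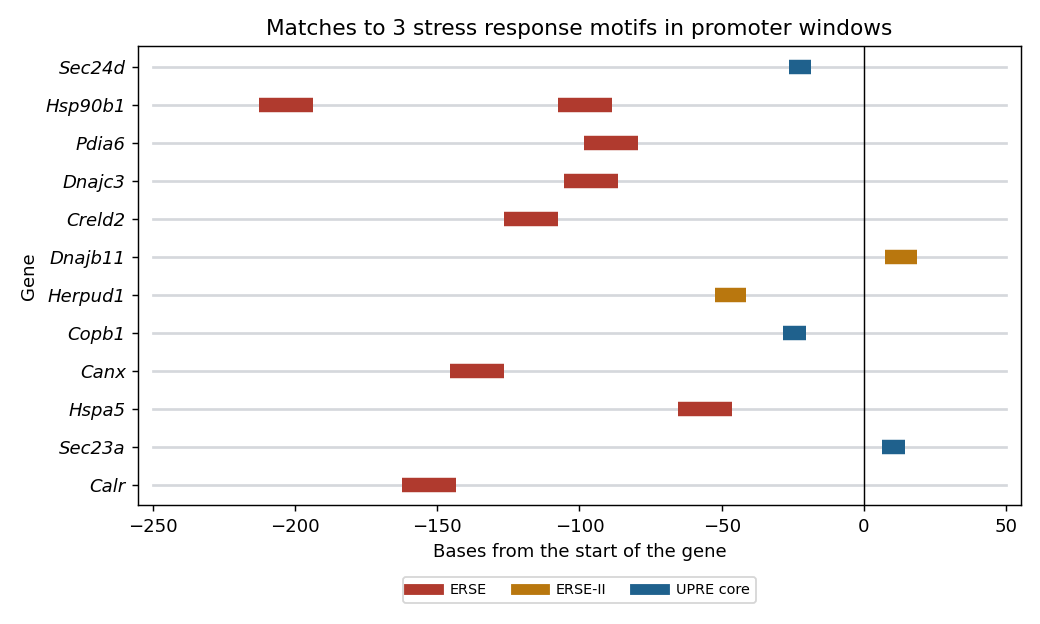
Matches to ERSE, ERSE-II and the UPRE core in the 12 member windows that hold one, by position in bases from the gene start (0, vertical line). Genes are ordered from top to bottom by their log2 difference of PDC over cDC, with the untested Calr last. Hsp90b1 has 2 ERSE matches, and the matches of Dnajb11 and Sec23a lie after the start.

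Genes with an ERSE match differed from each other in their values. Of the 7, 6 were tested, and Hsp90b1 was the one that passed in any comparison. Their log2 differences of PDC over cDC were -0.13 for Hspa5, -0.03 for Canx, 1.12 for Creld2, 1.12 for Dnajc3, 1.15 for Pdia6 and 1.33 for Hsp90b1. A match describes letters and is neither a bound site nor a cause.

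Marker genes separated the labelled populations, and correlations did so in part. Across probe sets, correlations were 0.785 to 0.953 within a population and 0.707 to 0.817 between populations, so the ranges overlapped. On U74A and U74B each value within a population was above all values between populations. On U74C this did not hold: PDC replicate 2 correlated at 0.817 with IKDC replicate 2 and at 0.809 with PDC replicate 1. All 8 killer cell genes reached a signal of 60 in both IKDC samples, with a summed signal of 47766.6 and 53493.7 against 3133.6 to 5282.7 in the others. The 8 cDC genes summed to 35119.4 and 37090.4 in cDC against at most 20511.6 elsewhere. Of these, Cadm1 alone read higher in PDC, at 6473.0 and 7591.1 against 3579.1 and 4340.8 in cDC. Flt3 was close in PDC and cDC (-0.30, limma adjusted p = 0.695). The 8 PDC genes summed to 44836.0 and 51009.7 in PDC against at most 8734.5 elsewhere. Unspiked bacterial control probe sets, which show the level without target, reached 45.2 on U74A, 122.7 on U74B and 148.7 on U74C. The number of arrays limits the precision of all values below.

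In PDC compared with cDC, 4 member genes were higher and 0 lower: the transcription factor Xbp1, the chaperone Hsp90b1, the channel subunit Sec61a1 and the vesicle coat protein Sec24d. The test was limma with Benjamini-Hochberg adjustment over all 23285 tested probe sets, with 0.05 as threshold, on log2(signal + 16), a scale that understates the change of low genes. Over all 12193 genes 4.99% were called in this comparison, 2.25% higher and 2.75% lower, and over all probe sets 3.65% were called. At an unadjusted p under 0.05, 11 of 38 members were higher and 2 lower, where 8.33% of all genes were higher and 9.05% lower. The median log2 difference was 0.32 over the 38 members and 0.00 over all genes, with 30 members above 0 and 8 below. Which members passed changed on leaving out any 1 of the 6 samples. Without PDC replicate 1, for example, Hsp90b1 and Sec61a1 no longer passed, while Dnajc3 and Pdia6 came to pass. The median over the members was 0.46 without PDC replicate 1 and 0.29 without PDC replicate 2. It was 0.22 without cDC replicate 1 and 0.26 without cDC replicate 2.

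In IKDC compared with PDC, 4 member genes were lower and 0 higher: Xbp1, Sec24d, the secreted ER factor Manf and the degradation factor Herpud1. Over all genes 5.88% were called, 2.71% higher and 3.17% lower, and over probe sets 4.45%. With no adjustment, at p under 0.05 by limma, 10 of 38 members were lower and 0 higher, against 7.91% lower and 9.35% higher over all genes. The median log2 difference was -0.33 over the 38 members against 0.01 over all genes, with 8 above 0 and 30 below (13 and 25 with median centring). This comparison and the previous one share the PDC samples, so the values are given side by side and their likeness is not a result. Xbp1 passed on leaving out any 1 sample, while Herpud1, Manf and Sec24d each failed to pass in some of these fits. Sdf2l1 came to pass as lower without IKDC replicate 2.

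In IKDC compared with cDC, Herpud1 was lower and no member was higher by limma, where 7.57% of all genes were called, 3.5% higher and 4.07% lower, and 5.6% of probe sets. Without adjustment, 4 of 38 members were higher and 4 lower at p under 0.05, shares near the 11.6% higher and 10.9% lower of all genes. The median was -0.02 over the members and 0.01 over all genes, with 19 members on each side of 0. Herpud1 did not pass on leaving out any IKDC or cDC sample. In its place Sdf2l1 passed as lower without IKDC replicate 2, and Ddit3 as higher without cDC replicate 1. Without PDC replicate 1 or PDC replicate 2 Herpud1 still passed, and Dnajc3 also passed as higher. With 1 call among 38 members, the count is too small to be read against the share of all genes.

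**Figure D2:**
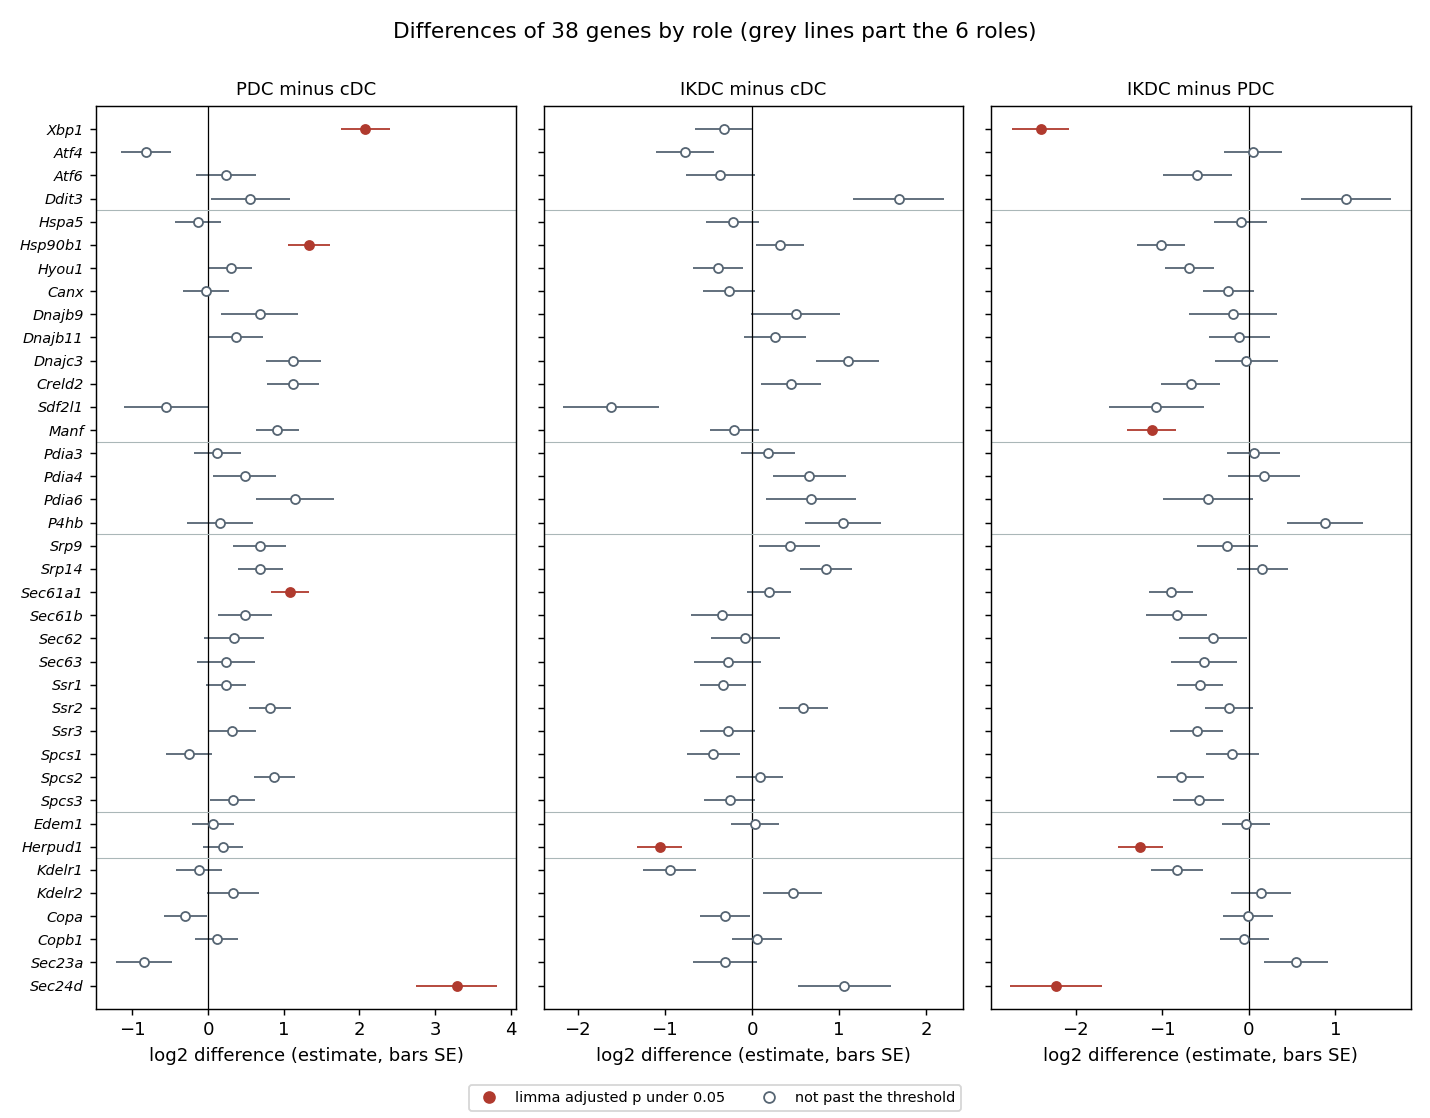
Log2 difference of each of the 38 measured genes in PDC minus cDC, IKDC minus cDC and IKDC minus PDC, in order of role, with bars of 1 standard error. Filled red points passed the limma threshold: 4 genes in PDC minus cDC, 1 in IKDC minus cDC and 4 in IKDC minus PDC, and each panel has its own axis range.

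Among the 4 sensors and transcription factors, Xbp1 was the one that passed. Its signal was 756.6 and 1416.2 in PDC, 251.0 and 216.3 in cDC, and 173.6 and 192.2 in IKDC. Both PDC samples lay above all others, and both IKDC samples below both cDC samples. The mean was 1086 ± 466 in PDC (SD, n = 2), 234 ± 24.5 in cDC (SD, n = 2) and 183 ± 13.2 in IKDC (SD, n = 2). PDC exceeded cDC by 2.08 ± 0.33 on the log2 scale (limma adjusted p = 0.00446, 95% interval 1.36 to 2.80), a 4.65-fold ratio of mean signals. IKDC were lower than PDC by a log2 difference of -2.40 ± 0.33 (limma adjusted p = 0.00123, 95% interval -3.12 to -1.68). IKDC and cDC differed by -0.33 ± 0.33 (limma adjusted p = 0.653, 95% interval -1.05 to 0.39). Without cDC replicate 2 the adjusted p of PDC over cDC was 0.0549. The array gives a single level of Xbp1 mRNA and says nothing of its splicing. In bulk samples, fewer cells of a type and less RNA per cell cannot be told apart.

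Xbp1 also marks plasma cells, so the plasma cell list stands beside it. Of its 10 genes 8 were measured, and their summed signal was 15893.6 and 12904.2 in PDC, 10595.9 and 7094.9 in IKDC, and 1894.2 and 2332.0 in cDC. Xbp1 itself is on the list. The antibody chain gene Igha read 6474.4 and 2614.5 in PDC, 5908.6 and 4204.8 in IKDC, and 190.1 and 226.6 in cDC. The Igha ranges of IKDC and PDC overlapped. Ighm, another antibody chain gene, read 6273.3 and 6534.2 in PDC, 3093.8 and 1659.1 in IKDC, and 937.2 and 1088.5 in cDC, and like Xbp1 it was lower in IKDC than in PDC (-1.49, limma adjusted p = 0.0202) and higher in PDC than in cDC (2.65, limma adjusted p = 0.000701). Irf4, a transcription factor that plasma cells share with dendritic cells, read 270.1 and 331.6 in PDC, 223.7 and 112.9 in IKDC, and 283.1 and 472.5 in cDC, and did not pass in any comparison. Mzb1, an ER protein on this list, read 1216.9 and 1457.7 in PDC, 457.9 and 249.7 in IKDC, and 24.9 and 54.2 in cDC. It was lower in IKDC than in PDC (-1.93, limma adjusted p = 0.0183). It was above cDC in PDC (4.65, limma adjusted p = 0.00017) and in IKDC (2.73, limma adjusted p = 0.0023). Jchain, which joins antibody units, was likewise above cDC in both. The plasma cell surface genes Sdc1 and Tnfrsf17 were near the minimum of 60 in every sample, between 39.6 and 111.6, and no measured gene of the list was at 0. The part of plasma cell RNA in the result was not tested.

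The other sensors did not pass. Atf4, the effector of the PERK arm, read 2493.7 and 2428.8 in cDC, 1949.1 and 1061.3 in IKDC, and 1726.7 and 1114.2 in PDC. Both cDC samples were above all others, but the spread within IKDC and PDC was wide. The log2 difference was -0.82 ± 0.34 for PDC over cDC (limma adjusted p = 0.276) and -0.77 ± 0.34 for IKDC over cDC (limma adjusted p = 0.244). Ddit3, which encodes the stress factor CHOP, read 249.3 and 169.8 in IKDC, 100.7 and 25.0 in cDC, and 135.3 and 52.4 in PDC. Both IKDC samples were highest, and the cDC replicate at 25.0 was under the level of unspiked controls. IKDC over cDC differed by 1.68 ± 0.52 (limma adjusted p = 0.0964). This value depended on the cDC replicates: it was 2.44 without cDC replicate 1 and 0.93 without cDC replicate 2. In each population replicate 2 read lower than replicate 1. With replicate number added to the model (the replicate block), the difference was 1.68 ± 0.38 and passed (limma adjusted p = 0.00685). Atf6, the membrane-bound sensor, read 85.9 and 123.8 in IKDC, 110.9 and 170.0 in cDC, and 195.3 and 138.3 in PDC on U74B. The cDC range overlapped those of IKDC and PDC, and the values lay around the 122.7 of the highest unspiked control of that array. Its differences were between -0.60 and 0.23 and did not pass, and 2 further probe sets of Atf6 did not pass either.

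**Figure D3:**
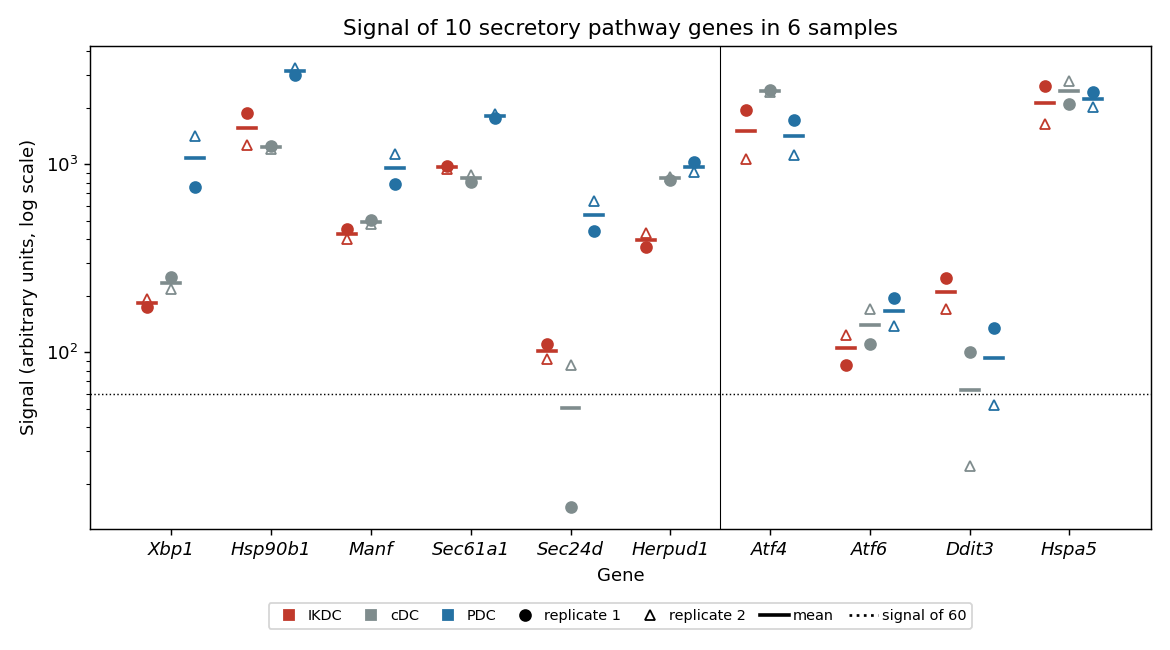
Signal (log axis, arbitrary units) of the 6 genes that passed in at least 1 comparison, left of the line, and of 4 that did not, right of it, in both samples of IKDC, cDC and PDC, with the mean as a bar. Xbp1, Hsp90b1, Manf, Sec61a1 and Sec24d are highest in both PDC samples, Herpud1 is lowest in both IKDC samples, and Hspa5 overlaps between populations.

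Of 10 measured ER chaperones and co-factors, 1 was higher in PDC than in cDC and 1 lower in IKDC than in PDC. Hsp90b1, the ER form of HSP90 (GRP94) that folds Toll-like receptors and integrins, read 2980.7 and 3257.3 in PDC, 1872.3 and 1262.4 in IKDC, and 1248.0 and 1212.1 in cDC. Both PDC samples lay above all others. PDC exceeded cDC by 1.33 ± 0.28 (limma adjusted p = 0.0218), a 2.54-fold ratio of means, and this call was lost without any of the 4 PDC and cDC samples (adjusted p up to 0.116). IKDC over PDC was -1.01 ± 0.28 (limma adjusted p = 0.0731). Manf, a small ER-resident and secreted protein induced by stress, read 782.5 and 1139.1 in PDC, 504.4 and 481.7 in cDC, and 450.2 and 403.1 in IKDC. The 3 populations did not overlap. IKDC were lower than PDC by -1.12 ± 0.28 (limma adjusted p = 0.0478), which passed narrowly and was lost in 10 of 15 alternatives, among them the removal of any sample but PDC replicate 1 (adjusted p up to 0.327). PDC over cDC was 0.92 ± 0.28 (limma adjusted p = 0.124).

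Hspa5 (BiP), the most abundant ER chaperone and a standard readout of the response, gave no such separation. It read 2612.0 and 1639.7 in IKDC, 2099.7 and 2782.1 in cDC, and 2425.2 and 2006.5 in PDC. The 3 ranges overlapped. The log2 difference of PDC over cDC was -0.13 ± 0.30 (limma adjusted p = 0.912), with a 95% interval of -0.80 to 0.54. That interval lies below the fitted difference of 1.33 of Hsp90b1, though the difference between these genes was not tested. For the other 7 chaperone genes, the log2 difference of PDC over cDC ran from -0.56 for Sdf2l1 to 1.12 for Dnajc3 and Creld2, and none passed. Dnajc3 encodes an inhibitor of PERK-type kinases and read 147.4 and 319.0 in PDC, 197.3 and 231.0 in IKDC, and 91.2 and 91.4 in cDC. Its log2 difference of IKDC over cDC was 1.1 ± 0.36 (limma adjusted p = 0.12). Its other tested probe sets gave 0.30, 0.48, 0.18 and 1.59 in this comparison, and none passed. The 1.59 rested on low cDC signals of 11.2 and 17.9. Sdf2l1, a partner of BiP, read 48.7 and 253.7 in IKDC, 397.5 and 383.5 in cDC and 277.7 and 244.4 in PDC, so the IKDC samples differed from each other more than the population means of PDC and cDC did. All 10 chaperones had a log2 difference below 0 in IKDC over PDC, from -1.12 to -0.03, with a median of -0.45. With median centring of the arrays, 7 of the 10 were below 0 and 3 above, Hspa5 among them at 0.04.

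The 4 protein disulfide isomerases, which make and rearrange disulfide bonds, did not pass in any comparison. Their log2 differences of PDC over cDC were 0.12 for Pdia3, 0.48 for Pdia4, 0.16 for P4hb and 1.15 for Pdia6, with limma adjusted p-values of 0.33 to 0.927, and Pdia6 alone had an unadjusted p under 0.05 (0.0483). In IKDC over cDC they were between 0.18 and 1.04, all above 0 (limma adjusted p = 0.223 to 0.809), and P4hb alone had an unadjusted p under 0.05 (0.0361). The PDC samples differed widely from each other: Pdia6 read 111.5 and 393.8, Pdia4 106.6 and 285.6, P4hb 209.2 and 399.6, and Pdia3 237.1 and 375.1. All 4 were thus higher in PDC replicate 2. In replicate 2 the 3′ to 5′ signal ratio of Gapdh on U74A was 3.19, against 6.0 in PDC replicate 1, 4.13 and 4.74 in cDC, and 3.34 and 3.59 in IKDC. The part of this difference in RNA or amplification was not tested. Pdia6 had further tested probe sets, which did not pass either. On these the PDC samples read 149.7 and 177.4, and 90.7 and 202.7, closer to each other than above. The cDC samples read 67.4 and 122.6, and 43.8 and 61.5, below both PDC samples on each.

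Among the 12 measured translocation genes, Sec61a1 passed in PDC over cDC and none passed elsewhere. Sec61a1, the pore of the channel, read 1755.8 and 1853.6 in PDC, 984.1 and 940.6 in IKDC, and 803.6 and 881.1 in cDC. Both PDC samples lay above all others. The log2 difference of PDC over cDC was 1.09 ± 0.25 (limma adjusted p = 0.0383), a 2.14-fold ratio of means. A further Sec61a1 probe set read 1387.3 and 1701.5 in PDC, 968.9 and 848.6 in IKDC, and 789.4 and 797.3 in cDC, and its difference of 0.94 did not pass (limma adjusted p = 0.0845). The call was lost in 9 of 15 alternatives, among them the removal of any of the 6 samples (adjusted p up to 0.182). In IKDC over PDC the difference was -0.90 ± 0.25 (limma adjusted p = 0.0805).

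The other translocation genes were mostly above cDC in PDC without passing. Of the 12, 11 had a log2 difference above 0 in PDC over cDC (median 0.41), and 11 were below 0 in IKDC over PDC (median -0.54), counts that were the same after quantile normalization and median centring. Spcs2, a subunit of signal peptidase, read 798.5 and 970.8 in PDC, 482.2 and 464.9 in cDC, and 570.3 and 444.9 in IKDC. Its difference of PDC over cDC was 0.87 ± 0.27 (limma adjusted p = 0.131). Ssr2, a translocon-associated protein, read 295.1 and 333.0 in PDC, 284.7 and 246.1 in IKDC, and 173.9 and 167.7 in cDC, with PDC over cDC at 0.82 ± 0.28 (limma adjusted p = 0.173). In both genes the PDC samples lay above all others. Spcs1, another signal peptidase subunit, was the member on the other side of 0 (-0.25 ± 0.30 for PDC over cDC). Srp14, a subunit of the signal recognition particle, read 880.3 and 670.4 in IKDC, 557.1 and 846.8 in PDC, and 395.5 and 447.7 in cDC. It was lowest in both cDC samples, and IKDC over cDC was 0.84 ± 0.30 (limma adjusted p = 0.145).

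Of the 2 ER-associated degradation genes, Herpud1 passed in both comparisons of IKDC. Herpud1 helps to hand misfolded proteins to the degradation complex and is a target of the unfolded protein response. It read 364.4 and 431.9 in IKDC, 828.2 and 861.0 in cDC, and 1024.3 and 914.8 in PDC. Both IKDC samples lay below all 4 others, at a mean of 398 ± 47.7 (SD, n = 2) against 845 ± 23.2 in cDC (SD, n = 2) and 970 ± 77.4 in PDC (SD, n = 2). IKDC were lower than cDC by a log2 difference of -1.06 ± 0.26 (limma adjusted p = 0.0375) and lower than PDC by -1.25 ± 0.26 (limma adjusted p = 0.0184). PDC and cDC differed by 0.19 ± 0.26 (limma adjusted p = 0.825, 95% interval -0.38 to 0.77). The call against cDC was lost with median centring (adjusted p = 0.126), with no variance trend (adjusted p = 0.0857) and without any of the 4 IKDC and cDC samples (adjusted p up to 0.283). The call against PDC was lost with median centring (adjusted p = 0.0654), with no variance trend (adjusted p = 0.0594) and without IKDC replicate 1, IKDC replicate 2 or PDC replicate 1 (adjusted p up to 0.198). Edem1, which draws sugar-bearing misfolded proteins out of the folding cycle, read 816.0 and 877.1 in IKDC, 886.5 and 769.4 in cDC, and 759.6 and 980.9 in PDC. Its populations overlapped, with differences between -0.03 and 0.06.

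Of the 6 vesicle transport genes, Sec24d passed in both comparisons of PDC. Sec24d is a cargo-binding subunit of the COPII coat. On U74B it read 444.5 and 634.6 in PDC, 111.3 and 91.7 in IKDC, and 15.1 and 85.7 in cDC. Both PDC samples stood well above the rest, while all IKDC and cDC signals lay under the 122.7 that unspiked controls reached on this array. The size of the difference is therefore not secure. PDC exceeded cDC by 3.28 ± 0.53 (limma adjusted p = 0.00818), and without PDC replicate 2 the adjusted p was 0.0701. Without cDC replicate 1, the sample at 15.1, the difference was 2.43, and without cDC replicate 2 it was 4.14. IKDC were lower than PDC by -2.22 ± 0.53 (limma adjusted p = 0.0478), a call that was lost in 9 of 15 alternatives. Among these were the removal of either IKDC or either PDC sample (adjusted p up to 0.225).

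The COPII partner Sec23a, which forms the inner coat with Sec24, was on the other side: it read 59.1 and 131.6 in PDC, 155.0 and 195.3 in cDC and 134.2 and 141.1 in IKDC. PDC over cDC was -0.85 ± 0.37 (limma adjusted p = 0.308), and both PDC samples lay below all others, an order found in 1 of 38 members and in 8.84% of all genes. A further Sec23a probe set, on U74C, did not show this order. It read 57.7 and 75.1 in PDC and 28.2 and 93.7 in cDC, under the 148.7 that unspiked controls reached there. Its difference was 0.23 ± 0.73 (limma adjusted p = 0.936). Kdelr1, a receptor that returns escaped ER proteins, read 446.1 and 576.3 in IKDC, 1039.8 and 946.1 in cDC, and 1167.2 and 712.8 in PDC. Both IKDC samples were lowest, with IKDC over cDC at -0.95 ± 0.30 (limma adjusted p = 0.107). Kdelr2, its close relative, was at 0.47 ± 0.34 in the same comparison (limma adjusted p = 0.515). The COPI coat genes Copa and Copb1 differed by at most 0.31 in size, and neither passed.

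Order across all 6 samples gave a further count. Both PDC samples were above all 4 others in 11 of 38 member genes, against 9.35% of all genes: Creld2, Herpud1, Hsp90b1, Manf, Sec24d, Sec61a1, Sec61b, Spcs2, Ssr1, Ssr2 and Xbp1. Both IKDC samples were below all 4 others in 7 of 38, against 12.3% of all genes: Herpud1, Hyou1, Kdelr1, Manf, Sec63, Ssr1 and Xbp1. Herpud1, Manf, Ssr1 and Xbp1 showed both orders, for which the share over all genes was not counted. The further probe sets of Ssr1 were divided on the PDC order. On one, PDC read 382.8 and 395.4, above the 342.8 and 258.8 of cDC. On another, PDC read 236.2 and 271.3, within the 217.4 and 289.2 of cDC. Within a population the members spread about as much as other genes. The median absolute log2 difference between replicates was 0.30 in IKDC, 0.29 in cDC and 0.47 in PDC for members, and 0.31, 0.38 and 0.44 for all genes. In PDC 23 of 38 members were higher in replicate 2, against 49.0% of all genes. Leaving out PDC replicate 1, PDC replicate 2, cDC replicate 1 or cDC replicate 2 left 28, 25, 26 and 26 members above 0 in PDC over cDC.

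**Figure D4:**
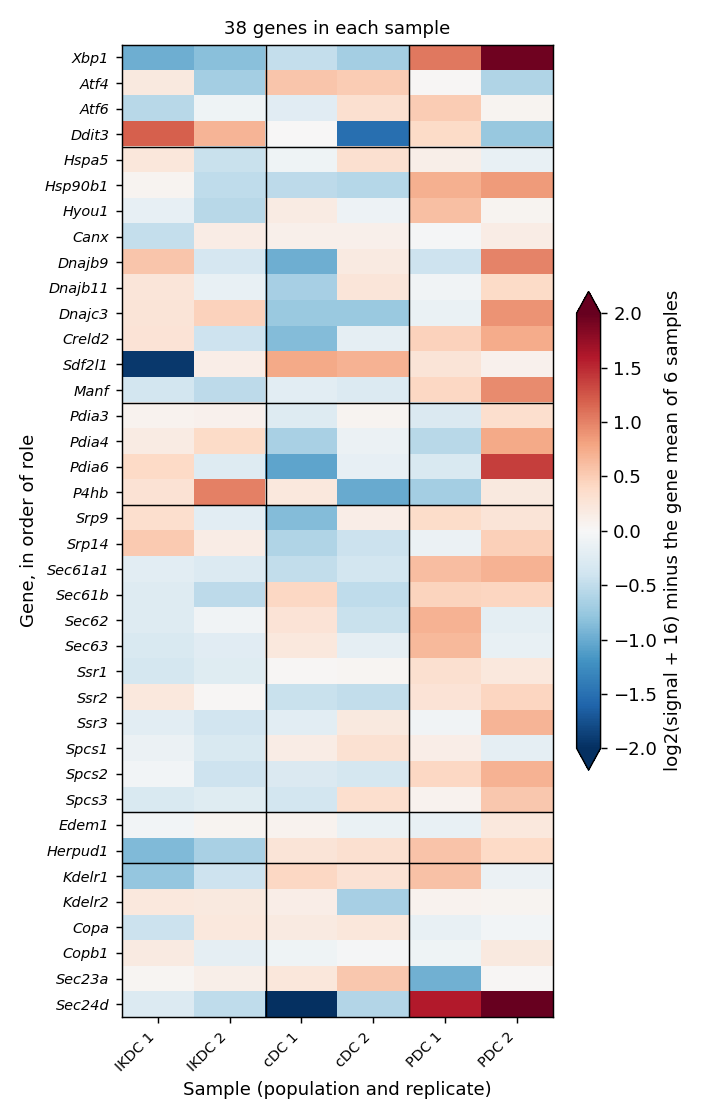
Log2(signal + 16) of the 38 measured genes in each of the 6 samples, relative to the mean of the gene, with horizontal lines between roles and a colour scale that ends at 2.0 on either side. Xbp1 and Sec24d are darkest red in the PDC columns, and Herpud1 and Xbp1 are blue in both IKDC columns.

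Other genes of the same pathway were read from a list of 93, of which 85 were tested. The list was chosen with earlier results of these data known, so it is not an independent set. In PDC over cDC 4 of the 85 were higher and 0 lower by limma, against 2.25% and 2.75% of all genes. At an unadjusted p under 0.05, 18 were higher and 3 lower, against 8.33% and 9.05% of all genes, with a median log2 difference of 0.29 and 67 of 85 above 0. The 4 were Txndc5, a disulfide isomerase (2.49 ± 0.30, limma adjusted p = 0.000701), Krtcap2, a subunit of the glycosylation enzyme (1.86 ± 0.30, limma adjusted p = 0.0055), Creb3l2, an ER stress transducer related to ATF6 (1.89 ± 0.31, limma adjusted p = 0.0091), and Cope of the COPI coat (1.33 ± 0.31, limma adjusted p = 0.0393). Creb3l2 read 916.0 and 1594.3 in PDC, 363.2 and 272.1 in cDC and 264.1 and 229.8 in IKDC on U74B, so that, like Xbp1, it was highest in both PDC samples. Txndc5 read 751.7 and 1020.2 in PDC and 649.8 and 552.2 in IKDC, both above the 119.2 and 170.8 in cDC.

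In IKDC over PDC 6 of the 85 were lower and 0 higher by limma, against 3.17% and 2.71% of all genes. At an unadjusted p under 0.05, 18 were lower and 4 higher, against 7.91% and 9.35% of all genes, with a median of -0.13 and 58 below 0. In IKDC over cDC 1 was higher, Txndc5 (1.95 ± 0.30, limma adjusted p = 0.00235), and 3 were lower, against 3.5% and 4.07% of all genes, with a median of 0.15. Pdia5, a disulfide isomerase, read 30.2 and 34.8 in IKDC, 208.1 and 264.2 in cDC and 269.5 and 233.0 in PDC. Both IKDC values were under the level of unspiked controls on U74A, so the size of its difference is not secure. Its difference was -2.37 ± 0.31 against cDC (limma adjusted p = 0.000861) and -2.46 ± 0.31 against PDC (limma adjusted p = 0.000712). Erp29, an ER chaperone related to the disulfide isomerases, read 319.6 and 271.7 in IKDC, 691.9 and 646.0 in cDC, and 752.0 and 823.3 in PDC. Ero1b, the oxidase that recharges disulfide isomerases, read 275.9 and 190.3 in IKDC, 527.4 and 513.4 in cDC, and 604.5 and 819.5 in PDC. Both passed as lower in IKDC than in cDC (limma adjusted p = 0.0276 and 0.0492) and than in PDC (limma adjusted p = 0.0113 and 0.0106).

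Markers of other cell types differed between the populations too. The exocrine pancreas list (12 of 18 genes measured) summed to 7062.2 and 5442.8 in IKDC, 3366.0 and 2676.3 in PDC, and 1874.1 and 1725.2 in cDC. Its gene Ctrb1, a digestive protease, read 1546.1 and 1428.6 in IKDC, 912.1 and 711.4 in PDC, and 534.6 and 526.7 in cDC. Clps alone of this list went the other way, at 158.3 and 36.2 in IKDC and 382.7 and 233.3 in cDC. Its log2 difference of IKDC over cDC was -1.72 (limma adjusted p = 0.195). The erythroid list (4 of 6 measured) summed to 14436.9 and 17201.8 in IKDC, 22554.8 and 9572.1 in PDC, and 788.3 and 1735.7 in cDC. The monocyte and macrophage list (7 of 8 measured) was highest in cDC, at 5198.9 and 5129.4, against 565.1 to 593.4 in IKDC and 2503.1 to 2772.6 in PDC. Much of the PDC sum was Cd68, at 1335.8 and 1944.0 in PDC against 806.1 and 845.5 in cDC. Cd68 alone of this list had a log2 difference above 0 in PDC over cDC (0.95, limma adjusted p = 0.108). The B cell list (6 of 8 measured) summed to between 634.4 and 2161.6, with the populations overlapping. No measured gene of these lists was at 0 in any sample. Their part in the values of Xbp1, Txndc5, Herpud1 and the others was not tested.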

How the data were processed

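Each of 6 samples (2 each of IKDC, cDC and PDC) was hybridised to 3 array types after RNA amplification in 2 rounds, per the labels. The deposited signals are linear intensities that the authors computed in GCOS 1.1.1, bringing each array to a mean of 150, per the labels. MAS5 is named in the submitters' processing notes. Trimmed means (2% at each end) were 150.035 to 150.098, so folds are relative to mean signal, and amplification favours 3′ ends.

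Signals were used as log2(signal + 16). Array types were fitted apart with limma 3.58.1 in R 4.3.3 (lmFit, eBayes with trend), all populations in 1 model with 3 residual degrees of freedom. Control probe sets (198) were left out, and 23285 of 36701 probe sets had 60 or more on at least 2 of 6 arrays (7081 on U74A, 8402 on U74B, 7802 on U74C). P-values were adjusted by Benjamini-Hochberg over all of them. Errors beside log2 differences are standard errors.

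Names came from the platform annotation, updated to a GRCm38.p6 gene table. Of 36899 probe sets 29197 had 1 symbol, 724 several and 6978 none listed. A gene was represented by its tested probe set with the highest mean signal (12 members had several). Full values were given for members past the threshold and for Xbp1, Atf4, Atf6, Ddit3 and Hspa5; of the other pathway genes, up to 4 per direction with the smallest adjusted p. Other members named for their values were chosen after these were seen. The members, gene lists and tests were chosen with earlier results of these data known. Alternatives covered the pseudocount (1, 64), the filter (none, 200), quantile normalization, median centring, the variance trend, the samples fitted, the replicate block, the mean of probe sets and each sample left out. The fit was tested on simulated data.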

Additional observations from a re-analysis of the deposited data

How the results depend on the processing

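Xbp1 passed in IKDC versus PDC under all 15 alternatives and in PDC versus cDC under 14 of 15. Of 444 values of named members under alternatives, 382 kept direction and side of the threshold, 46 no longer passed, 5 came to pass and 11 changed sign. Called member genes, 1 in IKDC versus cDC, numbered 0 with median centring and with no trend, and 2 with only these 2 populations and with the replicate block (Ddit3 added). Called probe sets there, also 1, numbered 0 with median centring and 2 with no filter, with a pseudocount of 64, with only 2 populations and with the replicate block. In PDC versus cDC the 4 genes became 2 with no trend. In IKDC versus PDC the 4 genes and the 4 probe sets each became 1 with median centring and with no trend, and 2 with no filter and with a pseudocount of 1; the filter at 200 gave 6. Leaving out 1 sample gave 0 to 2, 1 to 4 and 1 to 3 genes in the 3 comparisons, and 0 to 2, 1 to 4 and 2 to 3 probe sets. The lone sample is then assumed to vary like the other groups. Values that changed sign were all uncalled: Hspa5 in IKDC versus PDC was 0.040 with median centring and -0.42 to 0.24 on leaving out 1 sample, -0.56 to 0.11 in IKDC versus cDC and -0.33 to 0.071 in PDC versus cDC; Atf6 in PDC versus cDC was -0.043 to 0.51, Ddit3 in PDC versus cDC -0.20 to 1.31, and Atf4 in IKDC versus PDC -0.38 to 0.49. The cause was not tested. Median centring moved the median of all genes to 0.13 in IKDC versus cDC, 0.04 in PDC versus cDC and 0.09 in IKDC versus PDC; members were then at 0.09, 0.37 and -0.22, with 13 of 38 above 0 in the last. Whether the replicate numbers pair the samples is not stated. Differences of replicate 2 minus 1 correlated at -0.02, 0.08 and 0.07 between populations. These values cover all tested probe sets and cannot decide it for single genes. With the replicate block 4 genes passed in PDC versus cDC and 5 in IKDC versus PDC. Signals on U74B and U74C near the unspiked controls, as for Sec24d and Atf6, limit their fold changes.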
